A study of Canis lupus familiaris with 6 samples.

Results

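The genes described here are 225 protein-coding genes of a canine melanoma cell line whose exon reads gained more, or lost less, under hypoxia than their intron reads did. They were chosen among 9350 eligible coding genes, of 29822 annotated genes in all. A gene was eligible if it lay outside the mitochondrial chromosome and had at least 300 total exon reads and at least 300 uniquely mapped intron reads over the 6 libraries. Each kind of read was scaled to counts per 1000000 reads of that kind in each library (CPM). The exon change and the intron change are each the log2 of the mean over hypoxia libraries divided by the mean over normoxia libraries. A gene was kept where the exon change minus the intron change, called the difference below, was at least 0.5. The genes were thus chosen by their measured exon and intron reads under hypoxia against normoxia, and those values are given for them as a description, without a test. The reverse, an intron change larger than the exon change by at least 0.5, was found in 114 eligible genes.

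RNA was taken from CMM10, a line of canine malignant melanoma cells, after hypoxia (3 libraries) or normoxia (3 libraries), and no genetic change or added agent is named for either group. The labels state neither an oxygen level nor a time, and do not say whether replicates were separate cultures, so the spread between them may be technical. All values come from 1 cell line. Polyadenylated RNA was sequenced with a kit that does not mark strand, so reads of overlapping or antisense genes cannot be told apart. Gene reads per library numbered 23196647 to 28804337, of which total exon reads were 17378046 to 21926724 and unique intron reads 5149113 to 6220472. Among melanocyte markers, MITF (21.9 to 25.4 TPM), SOX10 (49.5 to 79.6) and DCT (42.1 to 56.5) were present, while PMEL and MLANA reached at most 3 TPM, TYRP1 at most 0.0627 and S100B at most 1.21, and TYR was at 0. Markers of other cell types were also present: EPCAM was at 137 to 166 TPM, CDH1 at 96.8 to 139 and the fibroblast marker COL1A1 at 116 to 148. The keratin KRT14 stood at 854 to 1020 TPM under hypoxia and 190 to 196 under normoxia. DCN (at most 3.27 TPM) and LUM (at most 0.297) were low, the immune marker PTPRC and the endothelial markers PECAM1 and CDH5 were at most 0.305, and CD3E was at 0. The part of other cell types in the results was not tested, and fewer cells of a type and less RNA per cell cannot be told apart in such samples.

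Most exon reads of polyadenylated RNA come from mature mRNA. Intron reads can come from transcripts not yet spliced, from introns that stay in the mRNA, or from other transcripts that lie inside the gene. Some genes without annotated introns also carried reads counted as intron reads, which the sources used here do not explain. The amount of a mature mRNA depends on its synthesis, its splicing and its decay, and a change in any of these, or in an unannotated transcript, can move the exon reads and the intron reads of a gene by unequal amounts.

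The 225 genes held 5 patterns, and exon reads were not higher in all of them. In 45 of them (20%) both kinds of read were higher by at least 0.2 on the log2 scale, with median changes of 1.60 for exons and 0.81 for introns. Exon reads were higher and intron reads within 0.2 of 0 in 40 genes (17.8%). In 39 genes (17.3%) exon reads were higher and intron reads lower. The most frequent pattern, in 83 genes (36.9%), was an exon change within 0.2 of 0 beside lower intron reads, with a median intron change of -0.59. Both kinds of read were lower in the last 18 genes (8%), with medians of -0.32 for exons and -0.92 for introns. Scaling libraries by the trimmed mean of M values (TMM) moved exon changes up by 0.06 and intron changes by 0.08, and the 5 counts then became 53, 50, 29, 80 and 13.

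**Figure D1:**
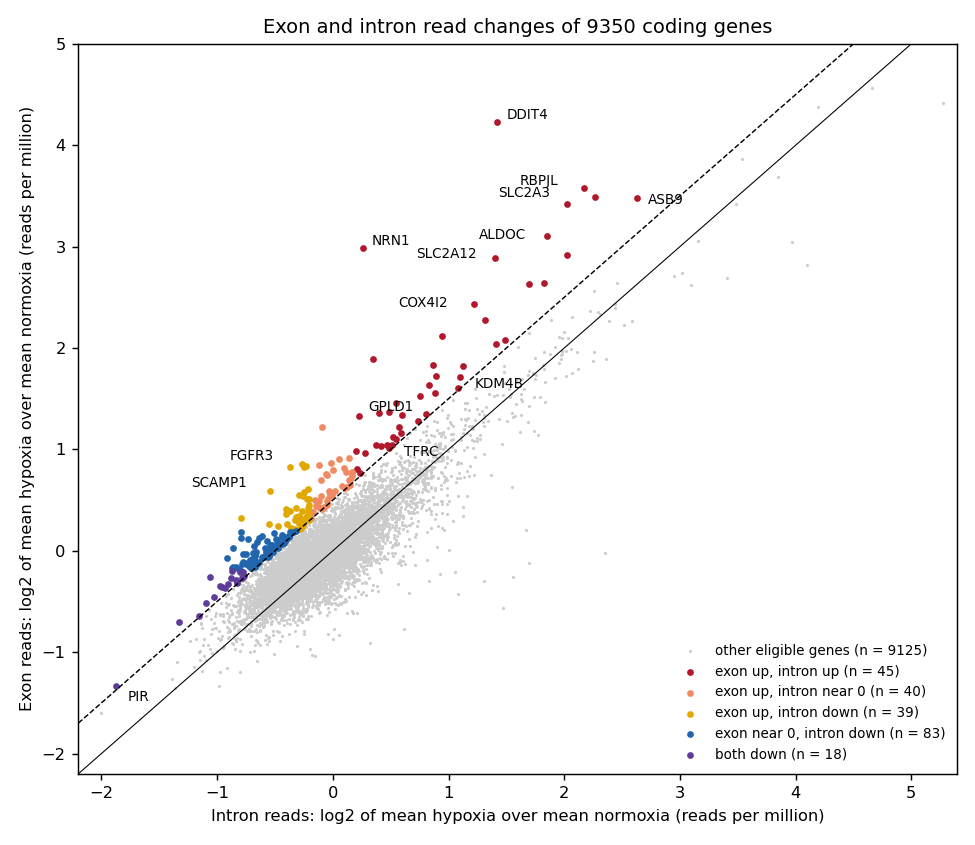
Exon change (vertical axis) against intron change (horizontal axis), both as log2 of mean hypoxia over mean normoxia CPM, with 1 point for each of 9350 eligible coding genes. The 225 genes with a difference of at least 0.5 are coloured by pattern and lie on or above the dashed line, and the solid line marks equal changes; DDIT4 and NRN1 lie farthest from it, at differences of 2.80 and 2.73.

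The median exon change of the 225 genes was 0.30 (quartiles -0.01 and 0.78) against -0.08 over all eligible genes, and the median intron change was -0.33 against -0.13. Exon reads of 127 of the 225 were called higher under hypoxia by edgeR's quasi-likelihood test at an adjusted p below 0.05, and 11 lower, where 24.4% of 13458 tested genes were called higher and 23.8% lower. For intron reads the calls were 43 higher and 93 lower, where 19.1% of 13119 genes were called higher and 16% lower. In a joint fit of both kinds of read, 116 of the 225 differences were called, where 2.68% of 11625 genes were called with a positive difference and 2.76% with a negative one. The rule used the same contrast, so nothing is read from these counts, but they show that 109 of the 225 genes passed the threshold on size without passing the test over all genes. The exon to intron ratio was higher in every hypoxia library than in every normoxia library in 193 of the 225, against 15.9% of eligible genes. The rule selects on this ratio in the same libraries, so that count too is a description only. Exon reads alone did not overlap between conditions in 152 (64.1% of eligible genes), and intron reads alone in 157 (54.8%).

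The largest difference was that of DDIT4, which encodes an inhibitor of the mTORC1 kinase complex and is a known target of hypoxia-inducible factors. It lies on chromosome 4 (22916096 to 22964035, build CanFam3.1) and overlaps no other annotated gene. Its exon CPM was 804, 784 and 737 under hypoxia (replicates in the order of their numbers, here and below) against 46.0, 38.0 and 40.2 under normoxia. Its intron CPM was 139, 130 and 134 against 52.2, 56.2 and 42.1. Neither kind of read overlapped between conditions, yet the exon change was 4.23 on the log2 scale and the intron change 1.42, a difference of 2.80 ± 0.15 (SE, n = 3 per condition). The gene model used for counting spans 47940 bases with 6 exons. Whether it takes in other transcripts was not tested, so its intron reads may not be those of DDIT4 alone.

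The glucose transporter genes SLC2A3 and SLC2A12 and the aldolase gene ALDOC, which serve glucose uptake and breakdown, had both kinds of read higher, and exons more so. Exon reads of SLC2A3 (chromosome 27, 37297932 to 37428410) were 521, 499 and 572 CPM under hypoxia and 53.7, 46.9 and 48.3 under normoxia, and its intron CPM was 299, 347 and 360 against 78.8, 77.5 and 90.9. Its difference was 1.39 ± 0.13. The groups did not overlap in either kind of read, but its model overlaps FOXJ2 on the opposite strand. ALDOC (chromosome 9, 42778637 to 42782479, no overlapping gene) had 334, 351 and 363 exon CPM against 43.7, 37.4 and 40.5, while its few intron CPM was 16.9, 22.3 and 19.6 against 5.60, 5.24 and 5.44. The difference was 1.26 ± 0.11, and again no library of one condition reached the range of the other. SLC2A12 (chromosome 1, 26911334 to 26994576) was far lower, at 11.9, 10.9 and 11.6 exon CPM against 1.87, 1.41 and 1.38, with a difference of 1.48 ± 0.25, and its model overlaps TBPL1 on the opposite strand and a U6 gene. Means of log2 values with a pseudocount of 0.5 gave a difference of 1.16 for SLC2A12. The glycolysis list as a whole did not share the gap: its median difference was 0.00, with medians of 1.97 for exons and 2.02 for introns. Of its 20 eligible genes, 2 were among the 225 (10%, where the rule took 2.41% of all eligible genes).

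**Figure D2:**
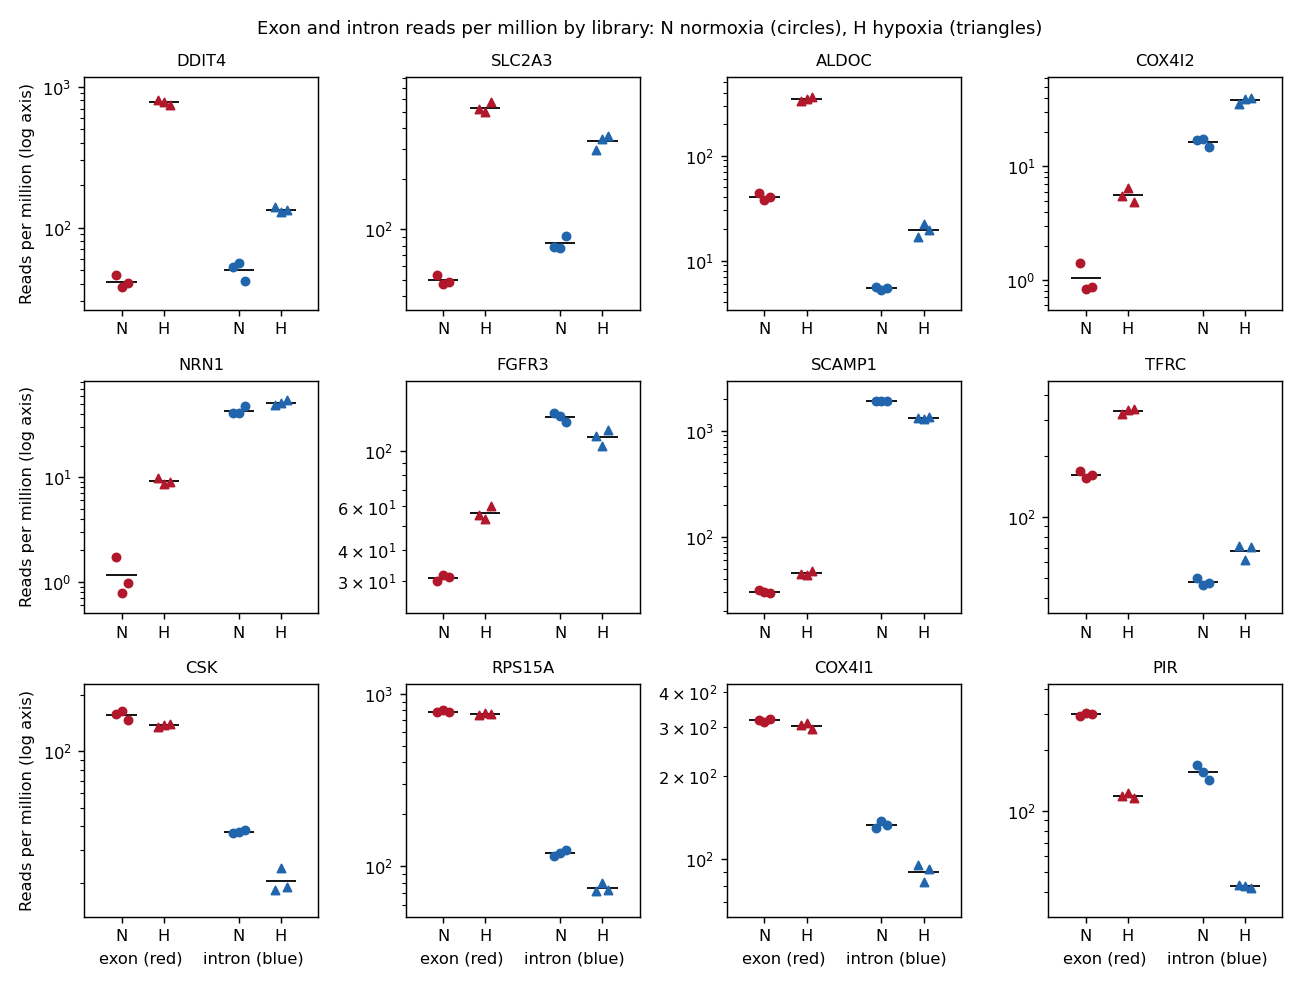
Reads CPM on a log axis in each library for 12 of the genes, with exon reads in red, intron reads in blue, circles for normoxia (N), triangles for hypoxia (H) and short bars for the mean of 3 libraries. In DDIT4, SLC2A3 and ALDOC both kinds of read stood higher under hypoxia with a wider gap for exons, in SCAMP1 and FGFR3 the 2 kinds differed in opposite directions, and in PIR both were lower.

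Further genes of this pattern lay in fat metabolism, respiration and chromatin. ACACB, which makes the malonyl-CoA that restrains fatty acid oxidation (chromosome 26, 17747362 to 17894400), had 29.5, 32.8 and 28.4 exon CPM under hypoxia and 2.32, 2.58 and 3.16 under normoxia. Its difference was 1.22 ± 0.24, and its model overlaps FOXN4. KDM4B, a histone H3 lysine demethylase that needs oxygen (chromosome 20, 54634121 to 54820816), had 103, 114 and 96.6 exon CPM against 34.5, 30.2 and 30.9, and 332, 365 and 333 intron CPM against 149, 159 and 173. The difference was 0.62 ± 0.12, with PTPRS overlapping. RORA, a nuclear receptor of the clock and of lipid metabolism, had a difference of 0.81 ± 0.20 at a low exon level of 8.14 to 9.43 CPM under hypoxia and 2.58 to 3.03 under normoxia. Means of log2 values with a pseudocount of 0.5 gave 0.65, and the RORA model overlaps ENSCAFG00000048602. Of the 35 eligible hypoxia-inducible factor targets outside glycolysis, DDIT4, RORA and KDM4B were the 3 among the 225. That is 8.57%, where the rule took 2.41% of all eligible genes, and the list's median difference was 0.02.

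Subunit 4 of cytochrome c oxidase, the last complex of the respiratory chain, is made as a common form (COX4I1) or as a form known to be induced by low oxygen (COX4I2). Both genes were among the 225, by different patterns. COX4I2 (chromosome 24, 21120213 to 21128320) had 5.52, 6.44 and 4.85 exon CPM against 1.41, 0.827 and 0.863, and 35.1, 39.1 and 40.3 intron CPM against 17.2, 17.3 and 14.8, for a difference of 1.22 ± 0.27, or 0.81 from means of log2 values with a pseudocount of 0.5. COX4I1 (chromosome 5, 66883732 to 66891500) had 305, 308 and 293 exon CPM against 318, 311 and 319, and 95.4, 83.1 and 92.1 intron CPM against 129, 138 and 133. Its exon change was -0.06 and its intron change -0.56. Its difference of 0.50 ± 0.08 is at the threshold, and its model overlaps EMC8 on the opposite strand. Per length, COX4I2 stood at 15.2 ± 2.1 TPM under hypoxia and 2.74 ± 0.87 under normoxia, and COX4I1 at 756 ± 18 and 773 ± 17 (SD, n = 3 per condition).

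TFRC encodes the transferrin receptor for iron uptake, and its mRNA is a textbook case of control by decay, through iron regulatory proteins that bind it. Decay was not measured here, and its part in the values below was not tested. The exon CPM of TFRC (chromosome 33, 29208609 to 29238242, no overlapping gene) was 323, 335 and 340 under hypoxia and 168, 155 and 162 under normoxia. Its intron CPM was 72.0, 61.2 and 71.4 against 50.2, 46.3 and 47.2. The exon change was 1.04 and the intron change 0.51, a difference of 0.53 ± 0.09, with no overlap between conditions in either. It was the 1 gene of the 225 among 11 eligible genes of iron uptake, storage and sensing (9.09%, where the rule took 2.41% of all eligible genes).

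A few genes of low level showed large differences. NRN1, which encodes the neurite growth factor neuritin (chromosome 35, 6070379 to 6078965), had 9.76, 8.68 and 9.07 exon CPM against 1.72, 0.778 and 0.978, while its intron CPM was 49.1, 51.4 and 53.8 against 40.5, 40.9 and 47.6. The difference of 2.73 ± 0.38 rests on 67 exon reads in the normoxia libraries together, and 91.3% of its normoxia reads were intron reads. RBPJL, a transcription factor related to the Notch effector RBPJ (chromosome 24, 32612386 to 32624567, overlapping MATN4), rests on 33 normoxia exon reads, and its difference of 1.40 ± 0.67 was 0.81 without normoxia replicate 3 and 1.83 without normoxia replicate 2, and 0.62 from means of log2 values with a pseudocount of 0.5. ASB9, a substrate adaptor of ubiquitin ligases on chromosome X (11505941 to 11533135), had an exon change of 3.48, an intron change of 2.63 and a difference of 0.85 ± 0.22. Means of log2 values with a pseudocount of 0.5 gave differences of 0.59 for ASB9 and 2.32 for NRN1. For GPLD1, a phospholipase that releases glycosylphosphatidylinositol-anchored proteins (chromosome 35, 22495073 to 22554105), exon CPM was 9.71, 8.59 and 7.84 against 3.13, 2.68 and 4.60, and the difference was 1.10 ± 0.25.

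In other genes the exon reads were higher without higher intron reads. The growth factor receptor gene FGFR3 (chromosome 3, 62303756 to 62323896, no overlapping gene) had 55.5, 53.3 and 60.0 exon CPM under hypoxia and 30.2, 32.0 and 31.1 under normoxia, whereas its intron CPM was 115, 105 and 122 against 142, 138 and 131. The 2 kinds of read thus differed in opposite directions without overlap between conditions, for a difference of 1.13 ± 0.05. SCAMP1, which encodes a membrane protein of secretory and recycling vesicles (chromosome 3, 28274205 to 28417496, no overlapping gene), had 44.4, 43.8 and 47.6 exon CPM against 31.0, 30.1 and 29.2. Its intron CPM, the highest of the 225 genes, was 1313, 1283 and 1339 against 1907, 1918 and 1900. Introns held 94.7% of its reads under normoxia, and its difference was 1.13 ± 0.03.

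FOS, a short-lived transcript of the AP-1 factor (chromosome 8, 48331026 to 48333467), had 23.2, 26.3 and 24.0 exon CPM against 12.4, 12.7 and 16.0. Its intron CPM overlapped between conditions, at 17.9, 25.6 and 35.1 against 29.4, 30.7 and 32.2, and the difference was 1.07 ± 0.28. CCN2, a matricellular growth factor gene, had 22.8, 22.5 and 24.3 exon CPM against 13.1, 14.4 and 15.6, with intron CPM of 16.3, 12.7 and 20.1 against 17.9, 11.7 and 22.9. Its exon to intron ratio overlapped between conditions, so its difference of 0.79 ± 0.31 is within the spread of single libraries. FOS and CCN2 were the 2 of 29 eligible immediate early or AU-rich transcripts among the 225 (6.9%, where the rule took 2.41% of all eligible genes). Smaller exon changes were seen for LAMA3, a laminin chain of epithelial basement membranes (exons 0.24, introns -0.27, difference 0.51 ± 0.07), and for EDC3, an enhancer of mRNA decapping (0.19, -0.35 and 0.54 ± 0.20). EDC3 was the 1 gene of the 225 among 35 eligible genes of mRNA decay (2.86%, near the share of all eligible genes).

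The largest pattern was that of exon reads near their normoxia level beside lower intron reads. CSK, the kinase that restrains Src family kinases (chromosome 30, 37852046 to 37870378, no overlapping gene), had 136, 139 and 141 exon CPM under hypoxia and 158, 164 and 147 under normoxia. Its intron CPM was 18.4, 24.0 and 18.9 against 36.7, 37.4 and 38.1, so that the intron change was -0.87 where the exon change was -0.17. The difference was 0.70 ± 0.13, and the groups did not overlap in either kind of read. Similar values came from the zinc finger gene ZNF606 (exons 0.18, introns -0.79, difference 0.97 ± 0.10) and from TRIM65, an E3 ubiquitin ligase gene (-0.16, -0.87 and 0.71 ± 0.14). For TRIM65, reads across exon junctions in place of exon reads gave a difference of 0.39, below the threshold, and for ZNF606 0.58. AIPL1, a photoreceptor chaperone gene, had an exon change of -0.07, an intron change of -0.92 and a difference of 0.85 ± 0.16, with PIMREG overlapping. RFXANK, a subunit of the factor that drives MHC class II genes, had intron CPM of 28.5, 15.9 and 18.9 against 48.1, 37.5 and 29.3. Its exon to intron ratio overlapped between conditions, and its difference was 0.89 ± 0.38.

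Cytosolic ribosomal proteins were the list with most genes among the 225, 8 of 52 eligible (15.4%, where the rule took 2.41% of all eligible genes): RPL31, RPS15A, RPSA, RPL9, RPL5, RPL12, RPL21 and RPLP0. These are structural proteins of the ribosome, and several of their genes host small nucleolar RNAs in introns. Over the 52 genes the median difference was 0.27 against 0.05 over all eligible genes, with a median exon change of -0.07 (all eligible genes -0.08) and a median intron change of -0.32 (all -0.13). The exon change was within 0.2 of 0 in 49 of the 52 and the intron change below 0 in 46, or in 44 under TMM scaling, where the median intron change was -0.23. In the joint fit 24 of the 52 were called with a positive difference and 1 with a negative one, where 2.68% and 2.76% of all tested genes were. That fit tests the contrast the rule used, and the list was chosen with earlier results known, so nothing is read from these counts. Exon reads of the 52 genes ran from 23254 (RPL21) to 238460 (RPL4), against a median of 5084 over all eligible genes. The part of depth in the calls was not tested.

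RPS15A (chromosome 6, 26322569 to 26329668), which overlaps no other gene, had 749, 770 and 758 exon CPM under hypoxia and 780, 805 and 780 under normoxia. Its intron CPM was 71.8, 79.7 and 72.4 against 114, 119 and 124, a difference of 0.62 ± 0.05. Intron reads thus separated widely between conditions where exon reads differed little. RPL5 (chromosome 6, 56207173 to 56215956) holds a SNORA66 and a SNORD21 gene, and had 34.3, 40.0 and 37.1 intron CPM against 54.2, 63.0 and 52.8. Its exon CPM was 1007, 958 and 1022 against 1050, 1041 and 1031, and its difference was 0.55 ± 0.12. The median difference was 0.28 in the 18 ribosomal protein genes that overlap a small nucleolar RNA gene and 0.27 in the other 34.

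Ribosomal protein genes have many processed copies in mammalian genomes, and reads shared with a copy make their exon values uncertain. Among the 8 genes, fewer than 90% of exon reads were uniquely mapped in 4, including RPL31 (13.2%), RPSA (29.7%) and RPLP0 (38.3%). The median difference was 0.25 in the 34 eligible ribosomal protein genes with at least 90% unique exon reads and 0.32 in the 18 below. RPL31, which also overlaps TBC1D8, had a difference of 0.75 ± 0.13 with total and 0.63 with unique exon reads. RPLP0 moved from 0.50 to 0.49 with unique exon reads, and so to just under the threshold. RPSA went from 0.61 to 0.60, and RPL9, with an exon change of 0.00 and an intron change of -0.57, stayed at 0.57.

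**Figure D3:**
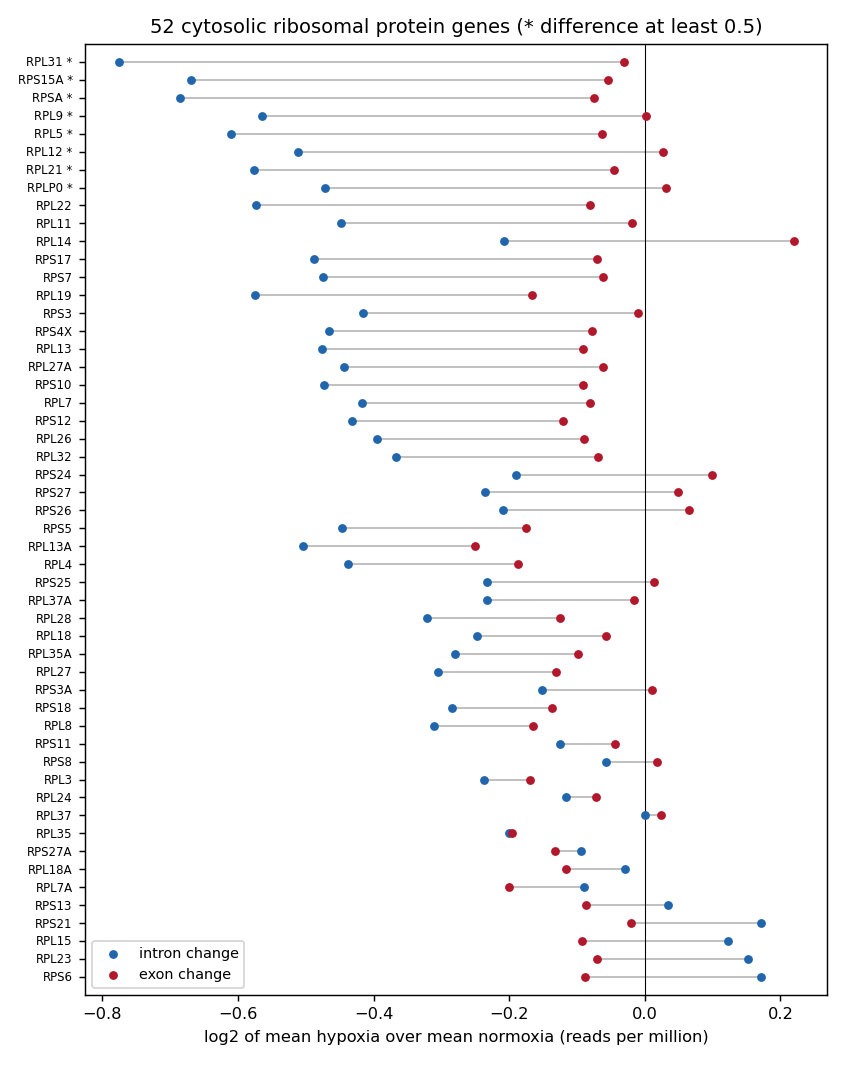
Exon change (red) and intron change (blue) of 52 cytosolic ribosomal protein genes, as log2 of mean hypoxia over mean normoxia CPM, ordered by difference, with asterisks on the 8 genes at or above 0.5. Exon changes lie between -0.25 and 0.22, while intron changes reach from -0.78 to 0.17.

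Where both kinds of read were lower, introns were lower by more. PIR, which encodes pirin, an iron-binding nuclear protein (chromosome X, 11627337 to 11733489, no overlapping gene), had 119, 123 and 116 exon CPM under hypoxia and 296, 306 and 301 under normoxia. Its intron CPM was 43.0, 42.9 and 41.6 against 168, 156 and 143. The exon change was -1.34 and the intron change -1.87, and the groups lay far apart in both. The difference was 0.54 ± 0.08. NOL9, a kinase of ribosomal RNA processing, had changes of -0.64 and -1.16, and the zinc finger gene ZNF483 of -0.51 and -1.09. JMJD4, an oxygen-dependent hydroxylase of a translation release factor, had changes of -0.46 and -1.02, with a difference of 0.56 ± 0.07. OCA2, a melanosome membrane protein gene whose model overlaps cfa-mir-8799g, had an exon change of -0.31, an intron change of -0.83 and a difference of 0.51 ± 0.26. It was the 1 gene of the 225 among 11 eligible melanocyte genes (9.09%, where the rule took 2.41% of all eligible genes). Its exon to intron ratio overlapped between conditions.

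**Figure D4:**
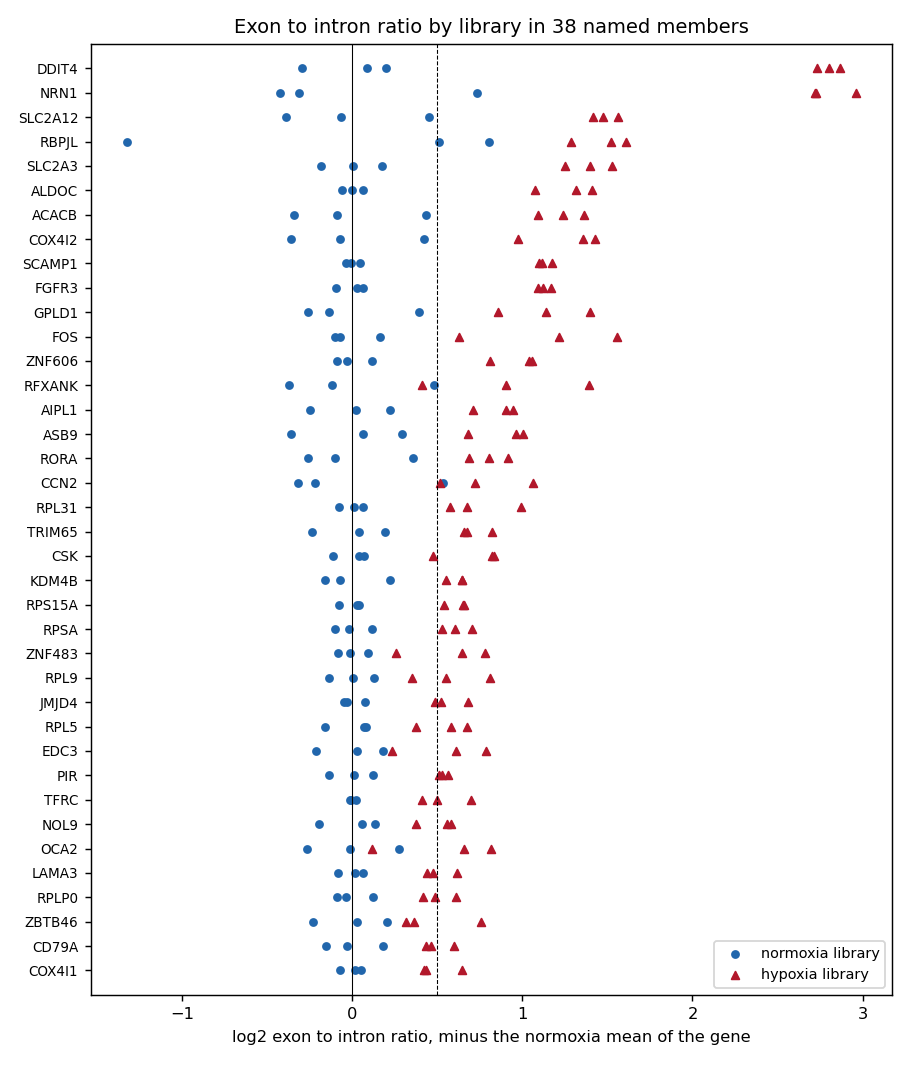
The log2 exon to intron ratio of each named gene in each library, shown minus the gene's mean over the 3 normoxia libraries, with circles for normoxia, triangles for hypoxia and a dashed line at 0.5. Hypoxia libraries lie to the right of normoxia libraries in most genes, and the symbols mix in CCN2, RFXANK and OCA2.

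Among the 16 gene lists, 7 held none of the 225 genes. These were splicing regulators (27 eligible genes), cholesterol synthesis and uptake (21), the amino acid and integrated stress response (22), mitosis (25), DNA replication (29), ribosome biogenesis (23), and lysosome and V-ATPase (20). The rule took 2.41% of all eligible genes, so nothing is read from an empty list of 20 to 29 genes. For the SR proteins, CLK kinases and other splicing regulators the median difference was -0.08, with 1 gene called with a positive and 7 with a negative difference (2.68% and 2.76% of all tested genes). These calls too are a description only. The ribosome biogenesis list, which like the ribosomal proteins serves ribosome production, had a median difference of 0.01. Its exon median was -0.68 and its intron median -0.61, so both kinds of read were lower there by similar amounts. Of the 31 eligible genes for nuclear-encoded respiratory chain subunits, the COX4 pair were the 2 among the 225 (6.45%), and of 20 collagen and matrix genes LAMA3 was the 1 (5%).

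The 225 were genes of lower level than the eligible genes as a whole, with fewer reads of either kind but a larger share of intron reads. Levels and read shares come from the same reads that the rule used, so they are given as a description only. The median level under normoxia was 9.82 TPM for the 225 genes and 32.3 for all eligible genes. Exon reads over the 6 libraries had a median of 1920 against 5084, and intron reads of 942 against 1825. Introns held a median of 39.6% of a gene's normoxia reads against 27.1%, and 63 of the 225 (28%) had more intron than exon reads, against 17.7%. Gene length (median 29261 against 32791 bases), exon length (2210 against 2299 bases) and exons per gene (11 against 12) were close. The genes lay on 37 of the 39 chromosomes that held eligible genes.

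Low depth and selection went together. Of genes with 300 to 600 intron reads, 74 of 1167 (6.34%) met the rule, and 2.83% met its reverse. The share was 2.96% at 600 to 1200 reads, 1.81% at 1200 to 2400, 1.34% at 2400 to 4800, and 1.17% (19 of 1623) above that, where 1.42% met the reverse. The median SE of a difference shrank from 0.22 to 0.07 over the same range. The part of sampling noise in the membership of the shallow genes was not tested. Leaving out each library in turn kept 114 of the 225 at or above 0.5 every time, among them all 18 genes with a difference of at least 1, and 77 of the 114 overlap no annotated gene. Named genes that fell below 0.5 at least once were TFRC (lowest 0.456), PIR (0.466), NOL9 (0.41), ZNF483 (0.474), EDC3 (0.415) and LAMA3 (0.457). So did OCA2 (0.377), RPL5 (0.464), RPL9 (0.455), RPLP0 (0.451), COX4I1 (0.43), CD79A (0.427) and ZBTB46 (0.361). Under TMM scaling NOL9, LAMA3, OCA2, RPLP0, COX4I1, CD79A and ZBTB46 were also below 0.5.

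**Figure D5:**
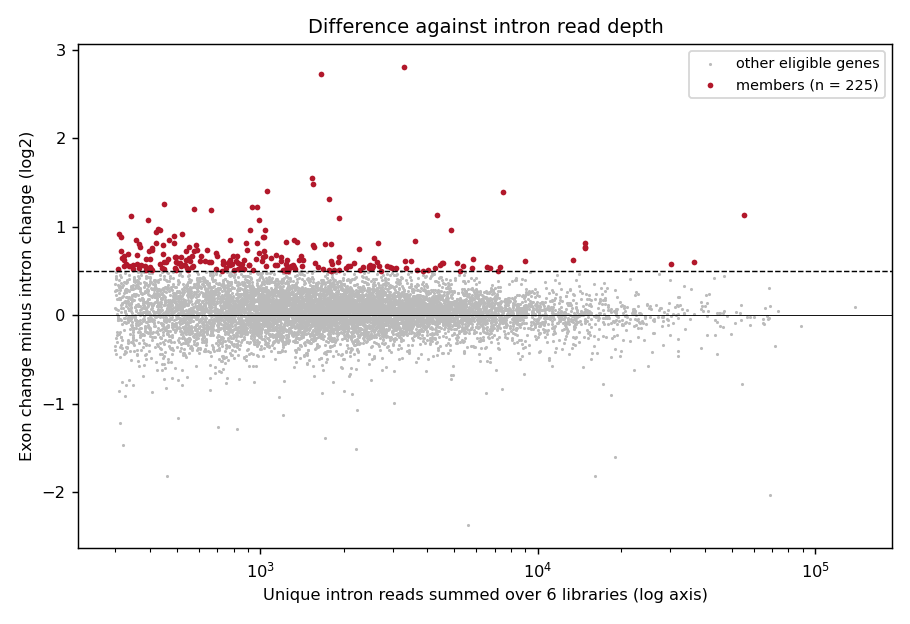
Difference between exon change and intron change (log2) against unique intron reads summed over 6 libraries (log axis), with 1 point per eligible gene and the 225 selected genes in red above the dashed line at 0.5. The scatter narrows with depth, and the selected genes are most frequent at the shallow end.

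Overlap with other genes was only a little more frequent than in the background. Of the 225, 69 (30.7%) overlap another annotated gene on either strand, against 27.1% of eligible genes, and 56 (24.9%) overlap a coding gene, against 21.0%. By pattern, 20 of the 45 genes with both kinds of read higher overlap another gene, and 2 of the 18 with both lower. The counts were 13 of 40 with exons higher and introns near 0, and 8 of 39 with exons higher and introns lower. With exons near 0 and introns lower, the count was 26 of 83. Of the 42 genes with an exon change above 1, 18 overlap another gene. Shares among all eligible genes of like change were not computed, so nothing is read from these counts. Without overlapping genes, 156 of 6814 eligible genes (2.29%) met the rule.

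At the threshold itself, the genes just inside were COX4I1, CD79A (exons -0.05, introns -0.55) and ZBTB46, a zinc finger gene (0.22 and -0.29). The genes just outside were FBXL19 (0.25 and -0.25), PHF20 (0.26 and -0.24) and ARRDC3 (1.16 and 0.66, a difference of 0.50). With junction reads in place of exon reads the difference of FBXL19 was 0.10. That of PHF20 was 0.32 without normoxia replicate 2 and 0.70 without normoxia replicate 3. CD79A, a subunit of the B cell receptor, was listed at 505 ± 18 TPM under hypoxia and 510 ± 15 under normoxia (SD, n = 3 per condition), in libraries where the immune markers PTPRC and CD3E were at most 0.103 TPM. The model of CD79A used for counting spans 16101 bases with 15 exons, and whether it takes in transcripts of a neighbouring gene was not tested, so these values may not be those of CD79A alone.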

How the data were processed

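RNA of CMM10 cells was sequenced in 3 hypoxia and 3 normoxia libraries, each with 1 table of 29822 genes on CanFam3.1, per the submitters' processing notes. The counts deposited, per the file headers, are total and unique exon, exon-exon and intron reads per gene, and the deposited TPM values were used only for levels. Not given in the sources used here are the aligner, the counter and whether 1 count is a read or a pair.

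The members and the 16 gene lists were chosen with earlier results of these data known. Changes are log2 ratios of mean CPM (counts per 1000000 reads of a kind). The SE of a difference is that of the log2 exon to intron ratios of 3 against 3 libraries. Calls used edgeR 4.0.16 in R 4.3.3 (quasi-likelihood test, TMM, filterByExpr, Benjamini-Hochberg adjusted p below 0.05) on exon counts, intron counts, and 12 columns of both with a library term and the interaction of read type with condition. The labels give replicate numbers but no pairing, so no block was used. Alternatives included DESeq2 1.42.0, other scalings, read types and minimums, and each library left out. Figures used Python 3.11.15, pandas 2.3.3 and matplotlib 3.10.9.

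The exon fit, the joint fit and the rule were tested on simulated data with known changes.

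Genes with a symbol were named by rule. Taken were the 8 largest differences (no overlapping gene, at least 5 exon CPM, ratio not overlapping between conditions), the 4 largest exon increases and 4 largest decreases (both with at least 5 exon CPM), the 4 largest intron decreases with exons within 0.2 of 0, the 4 highest, 3 per list, the 4 largest with an overlapping gene, and 3 on each side of the threshold. RPL12 and RPL21, and genes of the closing section, were named after their values were seen.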

Additional observations from a re-analysis of the deposited data

How the results depend on the processing

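The number of genes chosen was within 1.5 times 225 under most settings: 193 with TMM scaling, 194 with 1 common scale per library, 226 with unique exon reads (221 shared with the 225), 192 with junction reads (142 shared), 264 with total intron reads (217 shared), 200 from means of log2 values with a pseudocount of 0.5 (193 shared) and 156 without overlapping genes. The junction setting also required at least 300 junction reads, which left 8503 eligible genes. Without that requirement, the junction change exceeded the intron change by at least 0.5 in 176 of the 225, and by any amount in 219. At a minimum of 100 reads the number chosen was 444 of 10724 eligible genes (4.14%), and at a minimum of 1000 reads 80 of 6521 (1.23%). The main setting took 2.41%, so the share itself was lower where more reads were required. A threshold of at least 1 on the difference left 18 genes. Leaving out each library gave 217 to 267 genes, of which 158 to 175 were among the 225. Members called by edgeR then ranged from 117 to 125 for higher and 9 to 12 for lower exon reads, from 37 to 41 for higher and 78 to 85 for lower intron reads, and from 82 to 98 for the difference.

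Without TMM factors, 25 members in place of 11 were called lower in exon reads, and the share of calls that were higher, over all genes, moved from 50.6% to 38.9% for exons, from 54.3% to 36.7% for introns (2100 lower calls became 3305) and from 49.3% to 61.4% for the difference. DESeq2 called 156 positive and 161 negative differences over all genes where edgeR called 312 and 321, and 80 of the members, with 17 more lacking an adjusted p. Without hypoxia replicate 2 edgeR called 193 and 206, and without hypoxia replicate 3 206 positive. The cause was not tested. With a replicate block, member calls were 128 higher and 11 lower for exons, 44 and 94 for introns, and 109 for the difference. Equal replicate numbers did not pair the libraries (correlations of -0.08 to 0.03 for exons and -0.02 to 0.02 for introns). Of 492 recomputed differences of 41 named genes, 11 moved beyond the replicate spread and 0 changed sign. Depth limits the genes of few intron reads most, as their larger SE shows.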

Other observations

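Genes with a JmjC domain, a fold of oxygen-dependent histone demethylases and protein hydroxylases, were listed after the values of KDM4B and JMJD4 had been seen, so their count is a description only. Of 26 eligible genes of this family, 5 were among the 225 (19.2%, where the rule took 2.41% of all eligible genes). They were KDM7A (exon change 0.82, intron change 0.10), JARID2 (0.39 and -0.27), KDM4B, JMJD4 and JMJD8 (0.42 and -0.11). The model of JMJD8 overlaps STUB1, RHBDL1 and WDR90. The family's median difference was 0.05, close to that of all eligible genes. Transferrin (TF), the ligand of the receptor encoded by TFRC, was also among the 225, with 53.5, 50.9 and 53.6 exon CPM under hypoxia against 28.0, 27.5 and 22.6 under normoxia. Its exon change was 1.02 and its intron change 0.49, against 1.04 and 0.51 for TFRC, and neither gene overlaps another. TF was named after its values were seen. Neither difference stayed at or above 0.5 each time 1 library was left out, and that of TFRC was 0.456 without hypoxia replicate 2. A link between the 2 genes was not tested.

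Eligible genes included 140 with a single annotated exon and 0 intron bases that still carried at least 300 intron reads each, with a median of 603 and a maximum of 8856. For such genes the counting behind the intron reads is not explained by the sources used here. Of the 225, 2 are of this kind, FANCF and ENSCAFG00000006666. The difference of 1 member, ENSCAFG00000007840, rested on a single library: it was 0.62 with all libraries and -0.08 without hypoxia replicate 3, and 0% of its exon reads were uniquely mapped.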
